A study of Mus musculus with 6 samples.

Results

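Messenger RNA of 38 mouse genes that take up glucose and break it down was followed along the pathway in newborn lenses. The set holds the genes of glucose uptake (Slc2a1, Slc2a3 and Slc2a4), of the 10 enzyme steps of glycolysis, of the fructose 2,6-bisphosphate switch, of pyruvate dehydrogenase and its kinases, of the pentose phosphate pathway and of the polyol pathway. Members were listed by name out of the 22298 entries of the deposited expression table. A symbol found 37 of them, and Tigar was found under the older name 9630033F20Rik, which RefSeq lists as its synonym.

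The lens has no blood vessels of its own once it is mature and little oxygen reaches its core, so it draws most of its ATP from glycolysis that ends in lactate. Glucose enters lens cells mainly through GLUT1, the product of Slc2a1. The pentose phosphate pathway branches off at glucose 6-phosphate and supplies NADPH, which keeps glutathione reduced, and the polyol pathway turns glucose into sorbitol, the sugar alcohol known from diabetic cataract.

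RNA came from whole lenses of mice at postnatal day 0, labelled Fyco1-/- in 3 libraries and WT in 3 libraries, all of strain C57BL/6, with 10 lenses pooled per library. Fyco1 encodes an adaptor that couples autophagosomes and late endosomes to kinesin. How the allele was made, and whether the genotypes were littermates, is not given in the sources used here. Levels are in FPKM, fragments per kilobase of gene scaled to the mapped total, so they can be compared between genes of different length. Where 3 values are listed for a genotype, they are those of its libraries A, B and C in that order, and means carry the SD over the 3 libraries.

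Fyco1 itself lies on the minus strand of chromosome 9 (GRCm38, 123789500 to 123851899) and stood at 4.61, 4.59 and 4.87 FPKM in Fyco1-/- lenses, against 5.4, 5.21 and 5.11 FPKM in WT lenses (log2 difference -0.15, SE 0.08, limma adjusted p = 0.273). The Fyco1-/- values were all below the WT values, but the gene was not called, and a sum over the whole gene shows no allele. An estimated 18.8 M to 19.5 M reads lay behind the Fyco1-/- libraries and 17.1 M to 20.0 M behind those of WT. Crystallins held 70.9% to 71.7% of all FPKM in Fyco1-/- libraries and 70.2% to 71.4% in WT libraries. WT B stood apart in skeletal muscle genes: Acta1 was at 0.778, 1.0 and 1.69 FPKM in Fyco1-/- lenses, against 4.61, 21.7 and 3.49 FPKM in WT lenses. Myh8 was at 0.0777 to 0.128 FPKM in Fyco1-/- libraries, against 0.228, 5.27 and 0.0747 FPKM in WT lenses.

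Of the 38 genes, 35 reached a mean of 0.5 FPKM and were tested, with limma on log2(FPKM + 0.5) over all 12001 genes that did so and a Benjamini-Hochberg adjusted p under 0.05 as the call. In Fyco1-/- lenses 11 of the 35 were lower (31.4%), where 5.02% of all tested genes were lower. A single member, Pfkm, was higher (2.86%), where 3.42% of all tested genes were higher. The other 23 were not called, and Slc2a3, Slc2a4 and Pfkfb1 lay under the filter. The median log2 difference (Fyco1-/- minus WT) of the 35 was -0.14, beside -0.04 over all tested genes, and 27 of the 35 differences were below 0. All 3 Fyco1-/- values lay below all 3 WT values in 17 of the 35, where 18.6% of all tested genes did so, and above them in 1, where 11.1% did so. Each limma p-value sets a difference against the spread between these 3 pools per genotype, drawn toward the trend over all tested genes.

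The lower genes were Slc2a1 and 10 of the 17 tested genes for the enzyme steps of glycolysis, a group whose median log2 difference was -0.30. In the upper steps, from hexokinase to triosephosphate isomerase, 4 of 9 genes were lower and 1 was higher. Over the lower steps, from Gapdh to Pkm, 6 of 8 genes were lower, and the Fyco1-/- values lay below the WT values in 8 of 8. None of the 4 tested genes of the fructose 2,6-bisphosphate switch, the 4 of pyruvate dehydrogenase and its kinases, the 7 of the pentose phosphate pathway or the 2 of the polyol pathway was called by limma. At an unadjusted p under 0.05, 2 of these 17 genes were lower (Rpe and Sord), where 15.1% of all tested genes were, and none was higher, where 9.32% were.

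**Figure D1:**
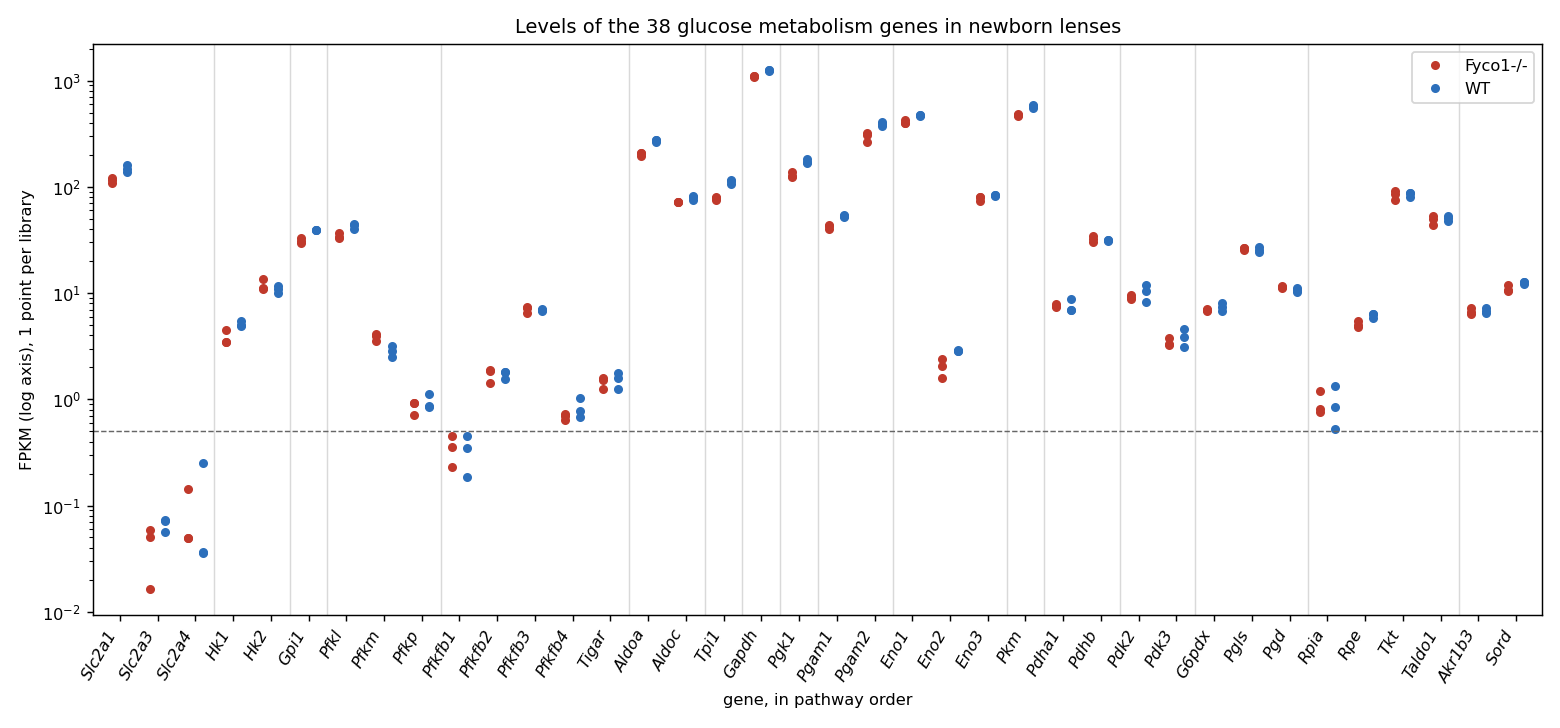
FPKM of each of the 38 genes in each library on a log axis, in pathway order, with Fyco1-/- (red) left of WT (blue); the dashed line is the 0.5 FPKM filter. Gapdh is the most abundant, at 1100.2 FPKM in Fyco1-/- and 1245.1 FPKM in WT lenses on average, and Slc2a3, Slc2a4 and Pfkfb1 lie under the line.

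**Figure D2:**
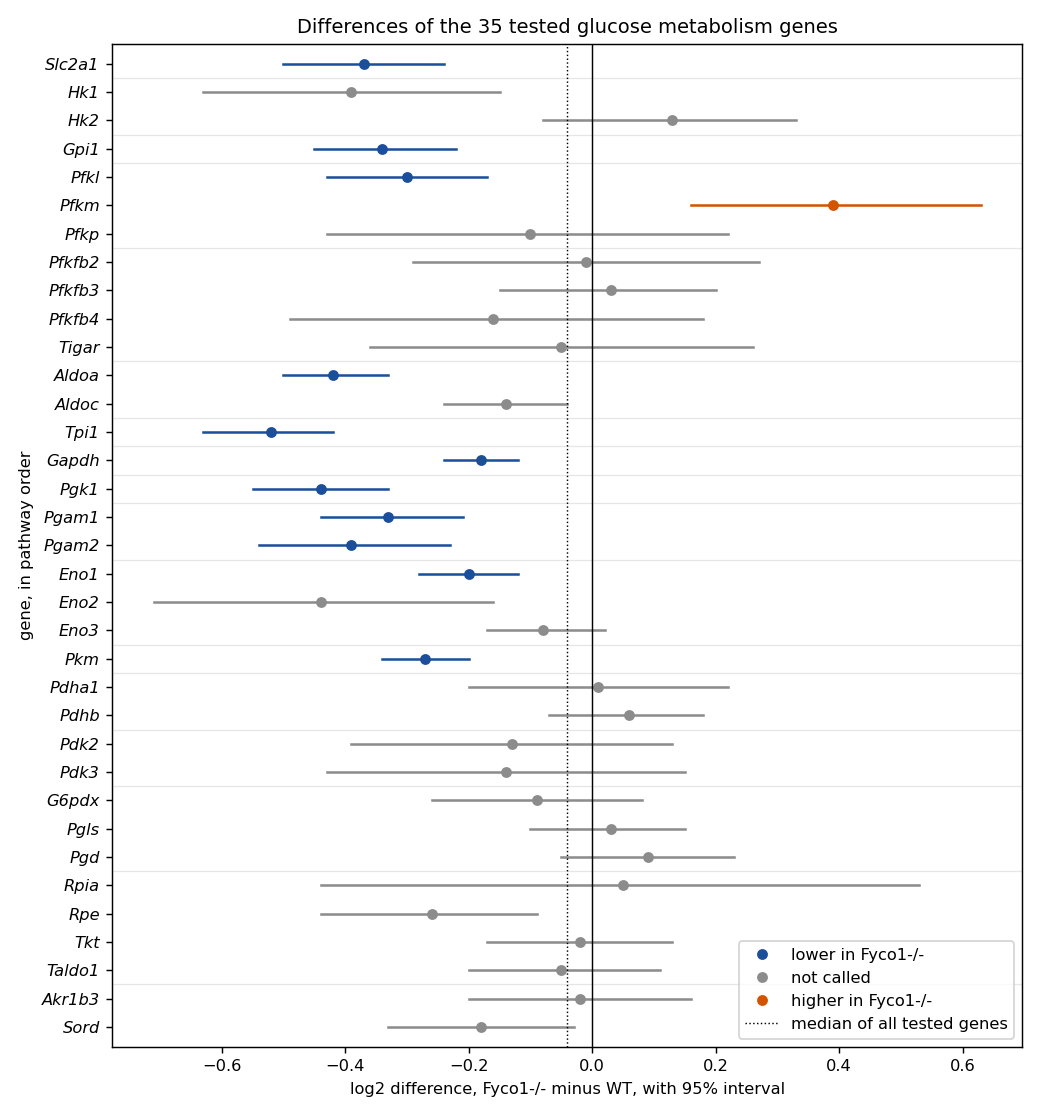
Log2 difference (Fyco1-/- minus WT) of the 35 tested genes with its 95% interval, in pathway order; blue is called lower, orange called higher and grey not called. The 11 lower genes lie between -0.52 (Tpi1) and -0.18 (Gapdh), and the dotted line is the median of all tested genes, -0.04.

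Of the 3 uptake genes in the set, Slc2a1 held nearly all of the message. Slc2a1 (GLUT1; chromosome 4, 119108711 to 119137983, plus strand) was at 115, 121 and 108 FPKM in Fyco1-/- lenses, against 147, 161 and 139 FPKM in WT lenses. Every Fyco1-/- pool was below every WT pool, and the mean was 115 ± 6.10 FPKM in Fyco1-/- and 149 ± 11.2 FPKM in WT lenses (SD, n = 3 each). The log2 difference was -0.37 (SE 0.06, limma adjusted p = 0.00408), with a 95% interval of -0.50 to -0.24. Slc2a3, the neuronal GLUT3, ran from 0.0164 to 0.0589 FPKM in Fyco1-/- and from 0.0561 to 0.0735 FPKM in WT lenses. Slc2a4, the insulin-responsive GLUT4, ran from 0.0494 to 0.144 FPKM in Fyco1-/- and from 0.036 to 0.25 FPKM in WT lenses. An estimated 2.3 to 10.4 reads per library lay behind Slc2a3 and 2.2 to 17.4 behind Slc2a4. Both were under the filter, so a change in either gene was not tested. Slc2a1 made up 99.9% of the summed FPKM of the 3 transporter genes in both genotypes.

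Hexokinase traps glucose in the cell by phosphorylating it. Hk1, the form found in most tissues, was at 3.47, 4.50 and 3.43 FPKM in Fyco1-/- lenses, against 5.44, 5.01 and 4.89 FPKM in WT lenses. The groups did not overlap, but the gene missed the call (log2 -0.39, SE 0.11, limma adjusted p = 0.0524). Without Fyco1-/- B it passed (log2 -0.50, limma adjusted p = 0.019). Hk2, the inducible form of muscle, fat and growing cells, averaged 11.9 ± 1.43 FPKM in Fyco1-/- and 10.8 ± 0.813 FPKM in WT lenses (SD, n = 3 each), with overlapping groups (log2 0.13, limma adjusted p = 0.432). The summed level of the step was 15.7 ± 1.31 FPKM in Fyco1-/- and 15.9 ± 0.937 FPKM in WT lenses, so this first step differed by less than the spread between libraries.

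Gpi1 (chromosome 7, 34201330 to 34230336, minus strand) encodes the isomerase that turns glucose 6-phosphate into fructose 6-phosphate. It was at 32.9, 30.6 and 29.3 FPKM in Fyco1-/- lenses, against 39.0, 39.4 and 39.1 FPKM in WT lenses. The WT pools were almost alike and all above the Fyco1-/- pools (log2 -0.34, SE 0.05, limma adjusted p = 0.00356).

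Phosphofructokinase commits sugar to glycolysis, and its 3 genes encode the liver (Pfkl), muscle (Pfkm) and platelet (Pfkp) forms. Pfkl (chromosome 10, 77986947 to 78010083, minus strand) was at 36.5, 34.0 and 33.3 FPKM in Fyco1-/- lenses, against 39.7, 43.8 and 44.5 FPKM in WT lenses. The groups were apart and the gene was lower (log2 -0.30, SE 0.06, limma adjusted p = 0.0118), a call that ended without WT B (log2 -0.28, limma adjusted p = 0.0514). Pfkm (chromosome 15, 98092589 to 98132451, plus strand) went the other way, at 3.92, 3.54 and 4.15 FPKM in Fyco1-/- lenses, against 2.84, 3.15 and 2.51 FPKM in WT lenses. It was higher without overlap (log2 0.39, SE 0.10, limma adjusted p = 0.0463), but leaving out any 1 library ended the call (limma adjusted p = 0.0541 to 0.147). Its exons overlap those of Gm26513 by 341 bases on the same strand, so reads there cannot be assigned to Pfkm with certainty. Pfkp averaged 0.847 ± 0.123 FPKM in Fyco1-/- and 0.949 ± 0.159 FPKM in WT lenses (SD, n = 3 each; log2 -0.10, limma adjusted p = 0.718). Summed over the 3 genes, the step was at 39.3 ± 1.56 FPKM in Fyco1-/- and 46.5 ± 2.65 FPKM in WT lenses.

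Fructose 2,6-bisphosphate switches phosphofructokinase on, and the Pfkfb enzymes make and remove it. Pfkfb3, the form that mostly makes it, was the most abundant of these genes, at 7.05 ± 0.54 FPKM in Fyco1-/- and 6.91 ± 0.106 FPKM in WT lenses (log2 0.03, 95% interval -0.15 to 0.20, limma adjusted p = 0.877). Pfkfb2, the heart form, averaged 1.71 FPKM in both genotypes (log2 -0.01, limma adjusted p = 0.979). Pfkfb4, the testis form, averaged 0.687 ± 0.0441 FPKM in Fyco1-/- and 0.829 ± 0.179 FPKM in WT lenses (log2 -0.16, limma adjusted p = 0.579). Pfkfb1, the liver form, was under the filter, at 0.229 to 0.455 FPKM in Fyco1-/- and 0.186 to 0.45 FPKM in WT lenses. Tigar, a phosphatase that removes fructose 2,6-bisphosphate, averaged 1.46 ± 0.185 FPKM in Fyco1-/- and 1.53 ± 0.259 FPKM in WT lenses (log2 -0.05, limma adjusted p = 0.869). The groups overlapped in all 5 genes.

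Aldolase splits the 6-carbon sugar into 3-carbon pieces, and triosephosphate isomerase interconverts them. Aldoa (chromosome 7, 126795234 to 126800751, minus strand), the muscle and general form, was at 209, 197 and 208 FPKM in Fyco1-/- lenses, against 265, 278 and 276 FPKM in WT lenses. The gap between the groups was wider than the spread within either (log2 -0.42, SE 0.04, limma adjusted p = 0.000141). Aldoc, the brain form, was at 71.9, 71.9 and 71.4 FPKM in Fyco1-/- lenses, against 74.6, 82.3 and 80.1 FPKM in WT lenses. Its groups were apart by a small margin and it was not called (log2 -0.14, SE 0.04, limma adjusted p = 0.093), although it passed after quantile normalization (log2 -0.18, limma adjusted p = 0.0414). Tpi1 (chromosome 6, 124810586 to 124814296, minus strand) showed the largest difference among the 11 lower genes, at 80.3, 78.0 and 74.5 FPKM in Fyco1-/- lenses, against 106, 114 and 115 FPKM in WT lenses. Its mean was 77.6 ± 2.89 FPKM in Fyco1-/- and 112 ± 4.62 FPKM in WT lenses (log2 -0.52, SE 0.05, limma adjusted p = 0.000124).

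From here on the pathway yields ATP. Gapdh (chromosome 6, 125161715 to 125166467, minus strand), the dehydrogenase that makes NADH and a standard reference gene for normalization, was at 1108.3, 1090.3 and 1102.1 FPKM in Fyco1-/- lenses, against 1245.6, 1228.8 and 1260.9 FPKM in WT lenses. The groups were apart by more than their spread, yet the difference was the smallest of the 11 (log2 -0.18, SE 0.03, limma adjusted p = 0.00243). With median-of-ratios scaling it was no longer called (log2 -0.13, limma adjusted p = 0.111). Pgk1 (chromosome X, 106187100 to 106203699, plus strand), the kinase of the first ATP-forming step, was at 123, 127 and 137 FPKM in Fyco1-/- lenses, against 173, 169 and 184 FPKM in WT lenses. All Fyco1-/- pools lay well below the lowest WT pool (log2 -0.44, SE 0.05, limma adjusted p = 0.00049).

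Phosphoglycerate mutase moves the phosphate before the last steps, and in these lenses most of its message came from Pgam2, the gene of the muscle form. Pgam2 (chromosome 11, 5801640 to 5803733, minus strand) was at 267, 323 and 311 FPKM in Fyco1-/- lenses, against 389, 410 and 376 FPKM in WT lenses. Fyco1-/- A was the lowest and the groups did not overlap (log2 -0.39, SE 0.07, limma adjusted p = 0.0104). Without WT B, the library with muscle genes, the log2 difference was -0.35 (limma adjusted p = 0.0422). Pgam1 (chromosome 19, 41911923 to 41918660, plus strand), the form of most other tissues, was at 44.0, 43.0 and 40.2 FPKM in Fyco1-/- lenses, against 51.5, 54.9 and 53.3 FPKM in WT lenses. It was lower by a like amount (log2 -0.33, SE 0.05, limma adjusted p = 0.00314).

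Enolase makes phosphoenolpyruvate. Eno1 (chromosome 4, 150236721 to 150248879, plus strand), the general form and in some vertebrates also a lens crystallin, was at 430, 403 and 401 FPKM in Fyco1-/- lenses, against 469, 472 and 476 FPKM in WT lenses. The 3 WT pools were nearly equal and above all Fyco1-/- pools (log2 -0.20, SE 0.03, limma adjusted p = 0.00616), but with median-of-ratios scaling the call ended (log2 -0.16, limma adjusted p = 0.0648). Eno2, the neuronal form, was at 2.37, 2.05 and 1.6 FPKM in Fyco1-/- lenses, against 2.89, 2.87 and 2.84 FPKM in WT lenses. Without overlap it still missed the call (log2 -0.44, SE 0.12, limma adjusted p = 0.0611), which it passed without Fyco1-/- A (log2 -0.54, limma adjusted p = 0.0324). Eno3, the muscle form, averaged 78.1 ± 3.33 FPKM in Fyco1-/- and 82.4 ± 0.956 FPKM in WT lenses (SD, n = 3 each; log2 -0.08, limma adjusted p = 0.291).

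Pyruvate kinase closes the pathway with its second ATP-forming step. Pkm (chromosome 9, 59656368 to 59679375, plus strand) was at 475, 464 and 481 FPKM in Fyco1-/- lenses, against 553, 578 and 584 FPKM in WT lenses. The groups were clearly apart (log2 -0.27, SE 0.03, limma adjusted p = 0.000744). The gene level sums the M1 and M2 splice forms, which the table does not separate. Pkm and Pfkfb4 are the members on chromosome 9, which also carries Fyco1 and where 83 of 634 tested genes were called (13.1%), beside 884 of 10760 on the other chromosomes (8.22%). With the genes of chromosome 9, Pkm among them, left out of the p adjustment, 10 members were lower. The fit itself was not repeated, so this count lacks Pkm by design.

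**Figure D3:**
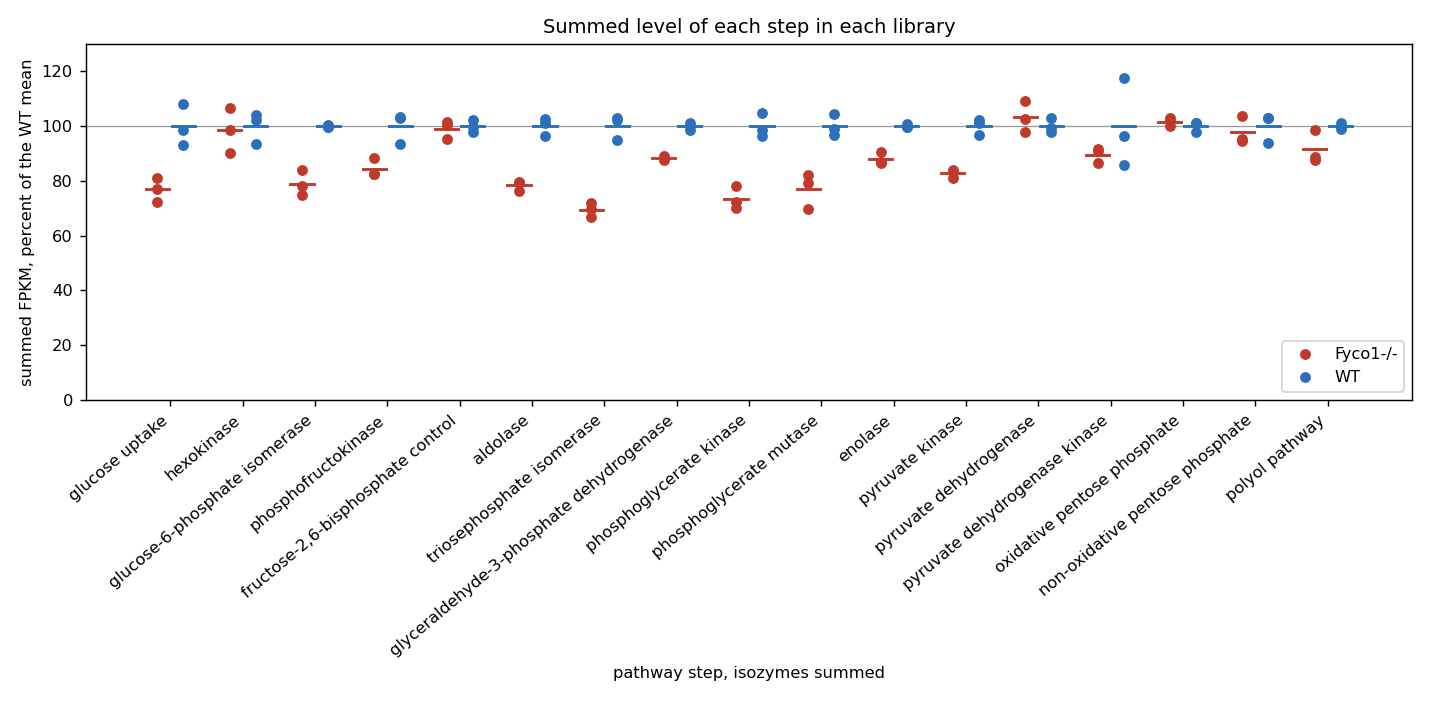
Summed FPKM of the genes of each step in each library as a percent of the WT mean of that step, with Fyco1-/- (red) left of WT (blue) and bars at the means. The Fyco1-/- points lie below all WT points at uptake and at each glycolytic step except hexokinase, and the 2 groups overlap from pyruvate dehydrogenase to the pentose phosphate steps.

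Summed over isozymes, 9 of the 10 enzyme steps had all Fyco1-/- libraries below all WT libraries, as the plot of summed levels by step shows. The ratio of mean sums (Fyco1-/- over WT) was lowest at triosephosphate isomerase (0.694) and phosphoglycerate kinase (0.735). It was 0.771 at phosphoglycerate mutase, 0.785 at aldolase, 0.789 at the isomerase, 0.828 at pyruvate kinase and 0.846 at phosphofructokinase. It was nearest to 1 at enolase (0.88), glyceraldehyde-3-phosphate dehydrogenase (0.884) and hexokinase (0.985). The sum over all 38 genes was 3356.9 ± 7.01 FPKM in Fyco1-/- and 3979.7 ± 38.5 FPKM in WT lenses (SD, n = 3 each). As a share of the summed FPKM of a library it was 0.442% to 0.447% in Fyco1-/- and 0.527% to 0.538% in WT lenses, and without crystallins in the total 1.53% to 1.56% in Fyco1-/- and 1.78% to 1.84% in WT lenses. These are descriptions with no test.

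The stretches upstream of 4 of these genes were printed to show a short motif, ACGTG, the core that hypoxia-inducible factors bind and that is known from many glycolytic promoters. Each is 250 bases before a RefSeq start site (GRCm38.p6), 5′ to 3′ on the strand of the gene, with ACGTG or its reverse complement CACGT in capitals. Pgk1 (chrX:106186850-106187099, plus strand) and Pgam1 (chr19:41911621-41911870, plus strand) were lower in Fyco1-/- lenses and hold it. Pgam2 (chr11:5803797-5804046, minus strand) was lower and has no match in its window, and Hk2 (chr6:82774455-82774704, minus strand) was not called and holds it.
Pgk1: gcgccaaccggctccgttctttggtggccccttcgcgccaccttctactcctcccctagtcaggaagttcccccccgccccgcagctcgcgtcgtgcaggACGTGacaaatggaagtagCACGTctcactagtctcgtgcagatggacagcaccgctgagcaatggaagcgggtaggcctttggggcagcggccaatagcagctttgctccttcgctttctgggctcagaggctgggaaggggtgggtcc
Pgam1: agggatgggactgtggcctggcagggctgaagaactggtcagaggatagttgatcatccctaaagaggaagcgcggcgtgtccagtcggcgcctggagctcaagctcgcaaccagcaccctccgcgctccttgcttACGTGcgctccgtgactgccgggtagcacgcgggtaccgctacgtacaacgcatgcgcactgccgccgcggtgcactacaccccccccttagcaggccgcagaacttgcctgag
Pgam2: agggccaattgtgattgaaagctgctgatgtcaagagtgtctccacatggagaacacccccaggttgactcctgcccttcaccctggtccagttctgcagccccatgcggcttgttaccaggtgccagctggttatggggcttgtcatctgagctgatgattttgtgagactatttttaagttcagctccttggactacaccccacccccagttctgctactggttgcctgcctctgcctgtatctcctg
Hk2: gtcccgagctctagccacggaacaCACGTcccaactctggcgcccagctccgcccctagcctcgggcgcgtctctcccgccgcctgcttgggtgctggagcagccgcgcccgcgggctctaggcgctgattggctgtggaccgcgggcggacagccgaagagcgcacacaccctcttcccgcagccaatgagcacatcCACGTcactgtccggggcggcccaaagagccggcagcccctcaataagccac
Windows were matched by symbol for 35 of the 38 members. Searched on both strands, ACGTG stood in 5 of the 11 lower members (45.5%), which were Slc2a1, Aldoa, Pgk1, Pgam1 and Pkm. It stood in 6 of the 23 members with a window that were not called or not tested (26.1%). Pfkm, the single higher member, held it too, so 12 of the 35 did (34.3%). Among genes with a RefSeq window, ACGTG stood in 25.9% of 8711 tested genes and in 18.5% of all 27025. Some genes have several start sites, and counted by window the share was 37.5% in the lower members, 24.2% in the members not called or not tested, 22.1% in tested genes and 16.6% in all genes. The nearest match lay 127 bases before the start in Pgk1, 110 in Pgam1 and 48 in Hk2. The E-box CACGTG, which contains the core, stood in 0 of the 11 lower members and in 10.4% of the tested genes. The antioxidant response element TGACNNNGC stood in 1 of the 11 (9.09%) and in 14.1% of the tested genes. A match describes the letters of a window and does not show binding.

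Pyruvate dehydrogenase passes pyruvate into the citrate cycle, and its kinases switch it off. Pdha1, the alpha subunit, averaged 7.60 ± 0.252 FPKM in Fyco1-/- and 7.60 ± 1.06 FPKM in WT lenses (log2 0.01, 95% interval -0.20 to 0.22, limma adjusted p = 0.971). Pdhb, the beta subunit, averaged 32.6 ± 2.05 FPKM in Fyco1-/- and 31.3 ± 0.306 FPKM in WT lenses (log2 0.06, 95% interval -0.07 to 0.18, limma adjusted p = 0.584). Among the kinases, Pdk2 averaged 9.22 ± 0.41 FPKM in Fyco1-/- and 10.2 ± 1.86 FPKM in WT lenses (log2 -0.13, limma adjusted p = 0.535). Pdk3 averaged 3.42 ± 0.289 FPKM in Fyco1-/- and 3.86 ± 0.755 FPKM in WT lenses (log2 -0.14, limma adjusted p = 0.557). The groups overlapped in all 4 genes, and the spread of both kinases was wide in WT, where Pdk2 ran from 8.28 to 12 FPKM.

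The oxidative branch of the pentose phosphate pathway, which makes NADPH, showed no call. G6pdx, which encodes its first and rate-limiting enzyme, averaged 6.93 ± 0.163 FPKM in Fyco1-/- and 7.43 ± 0.605 FPKM in WT lenses (log2 -0.09, 95% interval -0.26 to 0.08, limma adjusted p = 0.519). Pgls, the lactonase, averaged 26.1 ± 0.665 FPKM in Fyco1-/- and 25.6 ± 1.45 FPKM in WT lenses (log2 0.03, limma adjusted p = 0.819). Pgd, the second NADPH-forming enzyme, averaged 11.4 ± 0.315 FPKM in Fyco1-/- and 10.7 ± 0.435 FPKM in WT lenses (log2 0.09, 95% interval -0.05 to 0.23, limma adjusted p = 0.419). Summed, the branch was at 44.4 ± 0.619 FPKM in Fyco1-/- and 43.7 ± 0.758 FPKM in WT lenses, with overlapping libraries.

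The non-oxidative branch shuffles carbon between pentoses and glycolysis. Tkt, the transketolase gene, was its most abundant member, at 84.5 ± 7.94 FPKM in Fyco1-/- and 85.3 ± 3.96 FPKM in WT lenses (log2 -0.02, 95% interval -0.17 to 0.13, limma adjusted p = 0.913). Taldo1, the transaldolase gene, averaged 48.8 ± 4.64 FPKM in Fyco1-/- and 50.3 ± 2.82 FPKM in WT lenses (log2 -0.05, limma adjusted p = 0.747). Rpe, the ribulose-phosphate epimerase gene, was at 4.83, 5.41 and 4.98 FPKM in Fyco1-/- lenses, against 6.38, 6.33 and 5.86 FPKM in WT lenses. It was the member of this branch whose groups did not overlap, and it missed the call (log2 -0.26, SE 0.08, limma adjusted p = 0.0732). Rpia, the ribose-phosphate isomerase gene, spread from 0.751 to 1.19 FPKM in Fyco1-/- and from 0.52 to 1.33 FPKM in WT lenses, so its interval of -0.44 to 0.53 shows little in either direction (limma adjusted p = 0.917).

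In the polyol pathway Akr1b3, the mouse aldose reductase gene, averaged 6.73 ± 0.471 FPKM in Fyco1-/- and 6.82 ± 0.372 FPKM in WT lenses (log2 -0.02, 95% interval -0.20 to 0.16, limma adjusted p = 0.91). Sord, which encodes the enzyme that oxidizes sorbitol to fructose, was at 10.7, 10.5 and 11.9 FPKM in Fyco1-/- lenses, against 12.7, 12.1 and 12.8 FPKM in WT lenses. Fyco1-/- C came close to the WT values without reaching them, and the gene was not called (log2 -0.18, SE 0.07, limma adjusted p = 0.141).

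How far a missing call can be read depends on the interval. For 13 of the 23 genes not called, the 95% interval lay wholly above -0.30, the median of the glycolytic enzyme genes, and these included 5 of the 7 pentose phosphate genes (G6pdx, Pgls, Pgd, Tkt and Taldo1). For the other 10, among them Hk1, Eno2, Rpe, Rpia and both kinase genes Pdk2 and Pdk3, the interval reached that value. Calls also followed abundance. All 7 members with a mean of at least 100 FPKM were lower, where 14.2% of tested genes at that level were lower, and 4 of 9 between 30 and 100 FPKM were lower, where 9.42% were. Of 19 members under 30 FPKM none was lower by limma, where 4.43% were. At an unadjusted p under 0.05, 4 of the 19 were lower (Hk1, Eno2, Rpe and Sord) and 1 was higher (Pfkm). Over all tested genes of every level 24.4% passed in either direction, and the share among genes under 30 FPKM was not computed. These level classes were set after the values were seen.

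**Figure D4:**
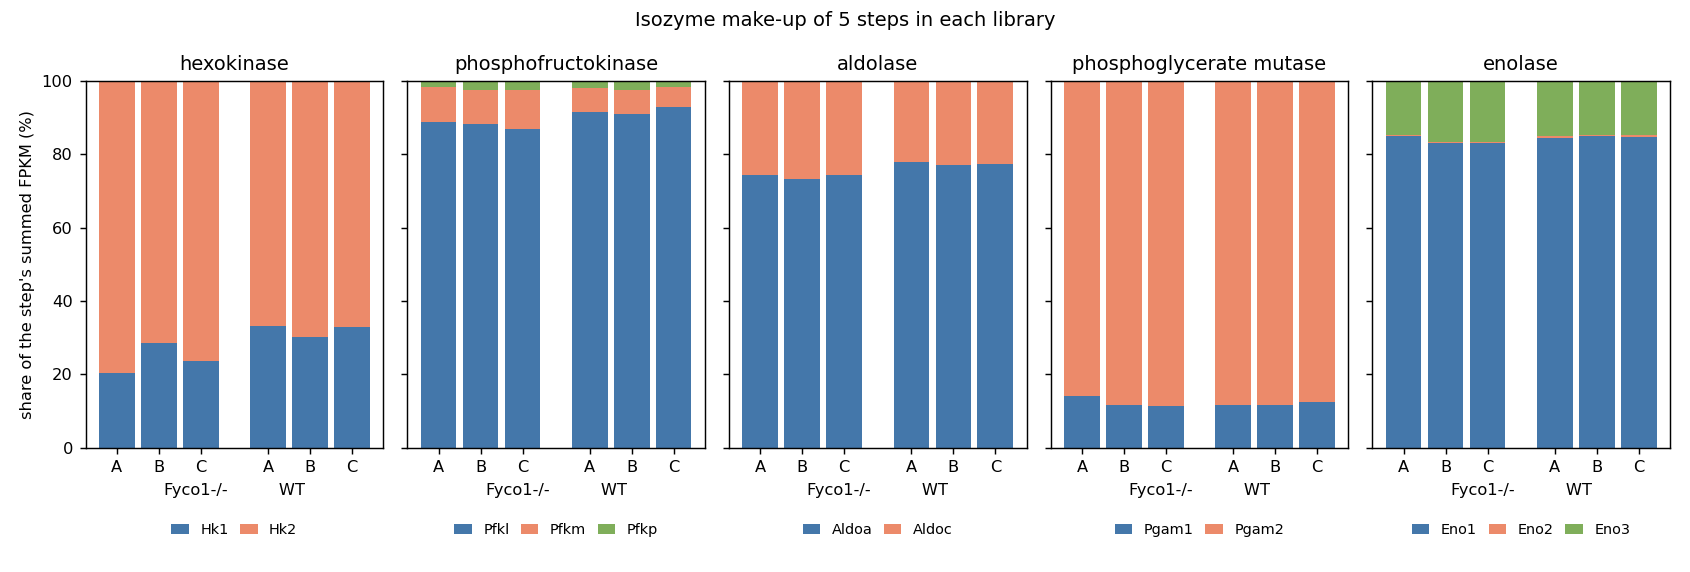
Share of each isozyme in the summed FPKM of its step in each library, for 5 steps, with Fyco1-/- A to C left of WT A to C. Pfkm takes 9.86% of the phosphofructokinase message in Fyco1-/- and 6.11% in WT lenses, while the Pgam2 share is 87.6% in Fyco1-/- and 88.0% in WT lenses.

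Isozyme make-up was compared as log2 ratios within a library, which do not depend on how a library was scaled. Of 11 ratios whose genes both passed the filter, 5 had groups apart, and an exact two-sided permutation test of 3 against 3 libraries gave p = 0.1 for each, the smallest it can give (Benjamini-Hochberg adjusted over the 11 ratios, 0.22). None of the 11 could therefore pass 0.05. Ratios that share a gene, as Pfkl over Pfkm and Pfkm over Pfkp do, are not independent. The share of other gene pairs with groups apart was not computed. Pfkl over Pfkm was at 3.16 ± 0.14 in Fyco1-/- and 3.92 ± 0.20 in WT lenses (difference -0.76), so the liver form led by less in Fyco1-/- lenses. Pfkm over Pfkp differed by 0.61. Hk1 over Hk2 was at -1.65 ± 0.33 in Fyco1-/- and -1.08 ± 0.11 in WT lenses (difference -0.57), and Hk1 made up 24.3% of the hexokinase message in Fyco1-/- and 32.1% in WT lenses.

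Aldoa over Aldoc was at 1.51 ± 0.05 in Fyco1-/- and 1.79 ± 0.04 in WT lenses (difference -0.28), with an Aldoa share of 74.0% in Fyco1-/- and 77.6% in WT lenses. Eno1 over Eno2 differed by 0.33, although Eno2 took under 1% of the enolase message in every library. Pgam1 over Pgam2 overlapped (difference 0.06, exact permutation p = 0.9). Overlap was also found for Eno1 over Eno3 (difference -0.12, exact permutation p = 0.3) and Pfkl over Pfkp (difference -0.14, exact permutation p = 0.5), as for the ratios within the Pfkfb, Pdk and pyruvate dehydrogenase genes. The plot of isozyme shares shows these 5 multi-gene steps library by library.

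Genes of the neighbouring pathways were counted from the same fit. Of 9 tested genes for lactate and pyruvate handling, 3 were lower (33.3%), where 5.02% of all tested genes were. None was higher, where 3.42% of all tested genes were. Ldha, the lactate dehydrogenase subunit of glycolytic tissues, was at 45.8, 45.7 and 40.9 FPKM in Fyco1-/- lenses, against 77.0, 99.1 and 85.6 FPKM in WT lenses. Its log2 difference of -0.97 (SE 0.09, limma adjusted p = 0.000298) was larger than that of any of the 35 tested members. Slc16a3, the lactate exporter MCT4, was at 3.17, 2.50 and 2.46 FPKM in Fyco1-/- lenses, against 5.05, 7.77 and 5.96 FPKM in WT lenses (log2 -1.06, SE 0.15, limma adjusted p = 0.00212). Bsg, the basigin chaperone of these exporters, averaged 169 ± 0.747 FPKM in Fyco1-/- and 186 ± 4.05 FPKM in WT lenses (log2 -0.14, limma adjusted p = 0.0329).

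Other parts of glucose metabolism held fewer calls, as the plot of gene lists shows. The shares called in them stand beside 5.02% lower and 3.42% higher over all tested genes. Of 11 tested genes for other isozymes of glycolysis and gluconeogenesis none was called in either direction by limma, nor had an unadjusted p under 0.05. Among 4 tested other hexose transporters 1 was higher (25.0%). This was Slc2a9, a urate and hexose carrier, at 2.30, 3.11 and 2.23 FPKM in Fyco1-/- lenses, against 1.04, 1.09 and 1.39 FPKM in WT lenses (log2 0.86, SE 0.14, limma adjusted p = 0.00515). Of 7 other pyruvate dehydrogenase complex genes, 1 was lower (14.3%). It was Pdk1, a kinase gene induced by low oxygen, at 6.57 ± 0.555 FPKM in Fyco1-/- and 9.17 ± 0.357 FPKM in WT lenses (log2 -0.45, limma adjusted p = 0.00662). Of 11 other pentose phosphate and polyol genes, 1 was lower (9.09%). It was Prpsap2, which encodes a partner of phosphoribosyl pyrophosphate synthetase (log2 -0.29, limma adjusted p = 0.0375). The 18 citrate cycle genes held no limma call in either direction, with 2 lower at an unadjusted p under 0.05 (Cs and Mdh1), under the 15.1% of all tested genes, and had a median log2 difference of 0.00.

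**Figure D5:**
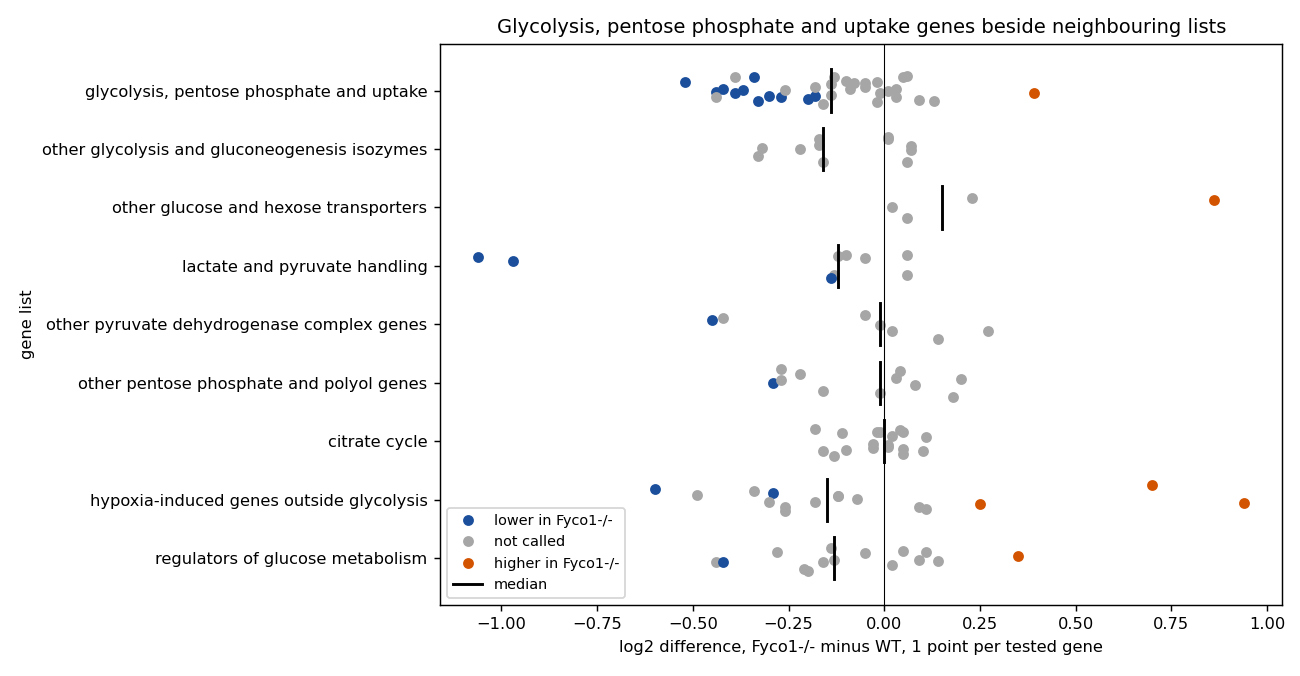
Log2 difference (Fyco1-/- minus WT) of each tested gene, by list, with the median of each list as a black bar; blue is called lower, orange called higher and grey not called. The glycolysis, pentose phosphate and uptake genes have a median of -0.14 and the citrate cycle genes a median of 0.00, and Ldha and Slc16a3 lie farthest to the left.

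Genes known to be induced by low oxygen but outside glycolysis moved both ways, with 3 of 16 tested higher (18.8%) and 2 lower (12.5%). Of all tested genes 3.42% were higher and 5.02% lower. At an unadjusted p under 0.05, 6 of the 16 were lower and 3 higher, where 15.1% and 9.32% of all tested genes were. Of the 16 log2 differences 11 were below 0, and their median was -0.15. The 3 called with the lowest p were Ndrg1, at 92.2 ± 5.16 FPKM in Fyco1-/- and 47.6 ± 0.133 FPKM in WT lenses (log2 0.94, limma adjusted p = 2.21e-06), P4ha1 and Egln1. P4ha1, a collagen prolyl hydroxylase gene, averaged 29.5 ± 1.42 FPKM in Fyco1-/- and 45.1 ± 5.2 FPKM in WT lenses (log2 -0.60, limma adjusted p = 0.00166). Egln1, the oxygen sensor PHD2, averaged 10.3 ± 0.385 FPKM in Fyco1-/- and 12.7 ± 0.469 FPKM in WT lenses (log2 -0.29, limma adjusted p = 0.0198). Of 15 tested regulators of glucose metabolism, 1 was higher and 1 lower (6.67% each), where 3.42% and 5.02% of all tested genes were. Arrdc4, an arrestin-domain gene driven by the glucose sensor MondoA, was higher (log2 0.35, limma adjusted p = 0.0178). Nfe2l2, which encodes the antioxidant regulator NRF2, was lower (log2 -0.42, limma adjusted p = 0.0156).

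Markers of lens epithelium were lower alongside the glycolytic genes. Their summed level was 577 to 611 FPKM in Fyco1-/- and 685 to 738 FPKM in WT lenses, and none of the 12 was under 0.1 FPKM. By limma 5 of 11 were lower (45.5%), where 5.02% of all tested genes were. These were Itga6, Sfrp1, Slc38a3, Tfap2a and Pax6, and none was higher. In bulk lenses fewer epithelial cells and less RNA per cell cannot be told apart, and the part of cell make-up in the glycolytic difference was not tested. Fibre markers summed to 206800 to 213172 FPKM in Fyco1-/- and 204689 to 211942 FPKM in WT lenses. Skeletal muscle markers summed to 42.5 to 51.6 FPKM in Fyco1-/- and 32.6 to 75.4 FPKM in WT lenses, with 1 of 6 tested higher (Actn2), the other 5 below 0 in log2 difference and not called, and Tnnc2 at 0 in 5 of 6 libraries. Actn2 carried most of the Fyco1-/- sums. Without it the other 7 markers summed to 3.73, 3.37 and 5.83 FPKM in Fyco1-/- lenses, against 9.57, 50.3 and 7.96 FPKM in WT lenses, so all Fyco1-/- libraries lay below all WT libraries. Their part in the values of the muscle isozyme genes Pgam2, Eno3 and Pfkm was not tested. Without WT B, 10 members were lower and none was higher by limma.

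None of the 25 tested markers of other tissues was called by limma, and at an unadjusted p under 0.05, 4 were lower (Pecam1, Rbfox3, Col1a1 and Col3a1), close to the 15.1% of all tested genes. Red blood cell markers (5 tested) summed to 102 to 241 FPKM in Fyco1-/- and 81.4 to 195 FPKM in WT lenses, and vessel markers (9 tested) to 38 to 40.8 FPKM in Fyco1-/- and 36.7 to 53.5 FPKM in WT lenses. Macrophage markers (5 tested) summed to 3.08 to 4.88 FPKM in Fyco1-/- and 4.05 to 8.76 FPKM in WT lenses. Retina and neuron markers (2 tested) summed to 3.12 to 4.79 FPKM in Fyco1-/- and 4.76 to 6.23 FPKM in WT lenses. Markers of cornea, iris and pigment (1 tested) and of mesenchyme and sclera (3 tested) stayed under 5 FPKM in every library.

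Several members share sequence with other genes. Of the 11 lower genes, Aldoa, Pfkl and Pgam2 have no annotated transcript at 95% identity over 100 bases in another gene. Gapdh has 144 such genes, of which 76 were matched in the table with a summed 10.8 FPKM, 0.919% of the level of Gapdh. The near-identical genes of Pgk1, Eno1, Gpi1, Pgam1 and Slc2a1 summed to 0.0451% to 3.98% of the level of their member. Tpi1 has 1 such gene and Pkm has 2, and none of these was matched to an expression value. Gpi1 shares 741 bases of exon with Gm26762 on the opposite strand and Pkm 767 bases with Gm49759 on the same strand, and how strand was handled in counting is not given in the sources used here. In the authors' deposited table, from DESeq2, 12 members were lower and 1 was higher at an adjusted p under 0.05. These were the 12 members called here, in the same directions, and Hk1 (adjusted p = 0.0392 in the authors' deposited table).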

How the data were processed

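Total RNA of whole lenses at postnatal day 0 was sequenced as 6 libraries, 3 per genotype. Per the submitters' processing notes, the authors used STAR 2.5 against GRCm38/mm10 and HTSeq 0.6.1, and they deposited 1 FPKM value per gene and library. Which total scaled them, which annotation was used and how strand was treated is not given in the sources used here. The authors also deposited log2 fold changes, p-values and adjusted p-values of Fyco1-/- over WT from DESeq2 for each gene.

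Genes with a mean of at least 0.5 FPKM over the 6 libraries (12001) entered a limma fit (3.58.1, R 4.3.3) of log2(FPKM + 0.5) on genotype alone, with robust moderation and a trend. Calls needed a Benjamini-Hochberg adjusted p under 0.05 over all tested genes, two-sided. Differences on this scale understate the change of low genes. FPKM are not counts, so no count model was fitted; depths were estimated from the steps between low FPKM values, of which 51.1% of 32797 fell within 0.05 of a whole read where chance gives 10%. Those estimates carry no counting intervals. The steps were tested on simulated data. Positions and exon overlaps came from GENCODE M21, near-identical transcripts from blastn 2.17.0 and upstream windows from RefSeq.

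All 38 members are named, called members with their 6 values, and each other list gets its counts and at most the 3 called genes of lowest p; genes named for an unadjusted p, and the marker genes with values, were added after their values were seen. The members and lists were chosen with earlier results of these data known. Alternatives were pseudocounts of 0.1 and 1, filters, no robust moderation, quantile and median-of-ratios scaling, crystallins left out, a replicate block, each library left out, a log2 bound of 0.3 and, chosen after seeing the data, chromosome 9 left out and members with no near-identical gene.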

Additional observations from a re-analysis of the deposited data

How the results depend on the processing

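The 11 lower members numbered 9 to 12 under other pseudocounts, filters, moderation, scalings and the replicate block. They numbered 10 to 12 without any 1 library and 7 with a log2 bound of 0.3 added. Taking out the genes of chromosome 9, Pkm among them, left 10. Members with no near-identical gene held 3 (Aldoa, Pfkl and Pgam2). The single higher member, Pfkm, was lost (0 members higher) with no filter on low values (limma adjusted p = 0.109), under the replicate block (limma adjusted p = 0.0822) and without any 1 library (0 to 0 members). Hk1 passed with a filter of 1 FPKM in 3 libraries (limma adjusted p = 0.044) and with crystallins left out (limma adjusted p = 0.049).

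Over all tested genes, the 410 higher and 602 lower became 246 and 322 with no filter, 627 and 483 with median-of-ratios scaling (56.5% of calls higher, beside 40.5%), 682 and 542 in the authors' deposited table, and 264 to 334 higher and 325 to 538 lower without any 1 library. Median-of-ratios scaling moved the median log2 difference of all tested genes to -0.003, beside -0.043. The fits without a library also rest on fewer libraries, and the cause of these changes was not tested.

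Libraries of the same letter did not deviate together (correlation -0.03 for A, 0.028 for B and 0.027 for C), and with the letter as a replicate block 367 genes were higher and 562 lower, and of the members 0 were higher and 11 lower. Leaving out 1 library turned 4 isozyme differences near 0: Pgam1 over Pgam2 ran from -0.05 to 0.12, Pfkfb2 over Pfkfb3 from -0.16 to 0.11, Pdk2 over Pdk3 from -0.13 to 0.19 and Pdha1 over Pdhb from -0.11 to 0.07. Members near 0.5 FPKM, such as Rpia, have intervals too wide to show changes of the size seen in the called ones.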
